A study of Homo sapiens with 4 samples.

Results

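The transcripts described here are those of NFE2L2, which encodes the transcription factor NRF2, of its inhibitor KEAP1, and of 8 genes that NRF2 is known to activate: TXNRD1, SRXN1, NQO1, AKR1B10, AKR1C1, HMOX1, ABCC3 and OSGIN1. They are 10 of the 28058 gene symbols in the count table, taken by name, and all 10 had enough counts to be tested. Poly(A) RNA was sequenced from 4 samples labelled as SH-SY5Y, a human neuroblastoma cell line: 2 that were left untreated (control) and 2 that received shock wave treatment, abbreviated SWT. The sample protocols describe SWT as 300 pressure pulses of 0.08 mJ/mm2 at 3 Hz, given to flasks in a water bath at 37 °C, 7 cm from the applicator, with RNA taken 6 h later. The series' design text speaks instead of exosomes from treated cells, and the labels leave it undecided which of these was done. Whether replicates came from separate cultures is not stated, and p-values therefore refer to variation among these 4 samples, part of which may be technical.

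NRF2 is a basic leucine zipper factor whose amount is set mainly by protein turnover. In unstressed cells KEAP1 holds NRF2 at a ubiquitin ligase built on CUL3 and RBX1, and NRF2 is degraded. Oxidants and electrophiles modify cysteines of KEAP1, NRF2 then accumulates, pairs with a small MAF protein and binds antioxidant response elements near genes for thioredoxin and glutathione chemistry, quinone and carbonyl reduction, heme breakdown and drug export, while BACH1 competes for the same elements. In neural cells the pathway is known for protection against oxidative injury. Because of its control at the protein level, the level of the NFE2L2 transcript is not a measure of NRF2 activity, and no protein was measured here.

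Libraries held 9888263 to 11686808 counts, and a gene without counts could still have 0.258 CPM (counts scaled to the library size and TMM factor) in the deepest library and 0.303 CPM in the shallowest. The counts did not show the usual marker profile of the labelled line. Of 12 noradrenergic neuroblastoma genes, 6 had 0 counts in all 4 libraries, TH, DBH and CHGA among them. In that list 1 gene, HAND2, reached 10 CPM in every library, whereas 6 of 7 mesenchymal genes did. A count of 0 need not mean that a transcript was absent. HMOX2, expressed in most tissues, was also at 0 in all 4 libraries. Heart muscle transcripts stood apart in control replicate 2, where 10 heart genes summed to 285 CPM, against 7.67 CPM in control replicate 1, 30.1 CPM in SWT replicate 1 and 10.3 CPM in SWT replicate 2. For that reason a value without control replicate 2 is given for each of the 10 genes below. Hepatocyte markers, of a cell type rich in detoxification enzymes, summed to 1.03 to 1.98 CPM. Across 6293 genes, SWT minus control correlated with GC content at a Spearman rho of -0.403. Control replicate 2 minus control replicate 1 stood at -0.483, and SWT replicate 2 minus SWT replicate 1 at 0.382. These values are descriptions across genes, which are not independent.

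Sequences near the starts of these genes were read from RefSeq (build GRCh38.p14), whose promoter table held 7 of the 10 genes by symbol, with 10 start sites. The 250 bases before each start were searched on both strands for the core letters of an antioxidant response element, TGACNNNGC or TGAGNNNGC, and for the AP-1 element TGANTCA. Either NRF2-type motif was present in 7 of the 10 windows and in 23.9% of all 35116 windows of that length. By gene, 6 of the 7 had a match, the regulators NFE2L2 and KEAP1 among them. GC content of the 10 windows ran from 40.8% to 80.4%, and the share over all windows was not matched for it. TGACNNNGC was in 3 windows, those of both TXNRD1 starts and of 1 KEAP1 start, and in 10.9% of all windows; TGAGNNNGC was in 6 windows and in 14.8% of all. TGANTCA was in 1 window, that of OSGIN1, and in 6.57% of all. A match is a description of letters and does not show binding. The window before the first TXNRD1 start is printed because that gene was the most abundant by CPM and because the window holds no annotated exon (chr12:104215529-104215778, plus strand, motif in capitals).
TXNRD1, first start: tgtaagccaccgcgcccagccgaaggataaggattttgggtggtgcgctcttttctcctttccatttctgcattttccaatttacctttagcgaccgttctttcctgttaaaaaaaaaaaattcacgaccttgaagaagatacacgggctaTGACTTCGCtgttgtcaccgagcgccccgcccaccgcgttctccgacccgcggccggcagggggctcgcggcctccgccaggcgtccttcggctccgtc
The 4 further lines give 1 match each with 10 bases on either side, on the strand that carries the motif, so that the variable letters can be compared.
TXNRD1, first start: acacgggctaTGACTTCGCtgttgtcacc
OSGIN1: ttcataagcgTGAGTCAGCaggggcccgt
NQO1: cggaggatgcTGAGGCTGCagctccagga
AKR1C1: ataagagcaaTGAGCTGGCaacgcccctg
The TXNRD1 match begins 99 bases before the start on the gene's strand (chr12:104215680-104215688). The OSGIN1 match covers bases 99 to 91 before the start on the opposite strand (chr16:83953141-83953149) and overlaps the AP-1 letters TGACTCA at chr16:83953143-83953149. The NQO1 match lies at chr16:69726671-69726679 and the AKR1C1 match at chr10:4963374-4963382, both on the opposite strand. By GENCODE annotation the matches of NQO1, AKR1C1 and OSGIN1 lie inside their own genes, which begin further upstream than these RefSeq starts. Annotated exon covers 250 of the 250 window bases of NQO1, 162 of AKR1C1 and 18 of OSGIN1. The SRXN1 window held none of the 3 motifs.

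All 10 genes were expressed in every library, above 10 CPM, and per exon length their mean levels spanned from 3.39 to 256 CPM per kb. NQO1, the quinone reductase, stood highest at 256 ± 6.39 CPM per kb of exon (SD, n = 4), TXNRD1 next at 213 ± 16.3, and the sulfiredoxin gene SRXN1 at 117 ± 8.81. The 4 libraries of each of these genes did not overlap with those of the next in order. ABCC3 at 32.1 ± 3.45 and NFE2L2 at 30.0 ± 1.29 CPM per kb overlapped, and KEAP1 followed at 25.8 ± 1.07 (SD, n = 4), below every NFE2L2 library. HMOX1 at 16.0 ± 1.31 overlapped with OSGIN1 at 14.3 ± 0.895, and OSGIN1 with AKR1B10 at 12.9 ± 1.93. Every HMOX1 library was below every KEAP1 library. AKR1C1 was lowest at 3.39 ± 0.184 CPM per kb (SD, n = 4), below every AKR1B10 library. By CPM alone every AKR1C1 library was above every AKR1B10 library (means 29.7 and 22.5), so that place rests on the lengths used. The lengths were 8765 bases for AKR1C1 and 1744 for AKR1B10. These lengths join all annotated exons of a gene. With the longest transcript in their place, TXNRD1 (335 CPM per kb) passed NQO1 (286) and NFE2L2 passed ABCC3, so those neighbours have no fixed order. The 10 genes summed to 3168 and 3339.7 CPM in the controls and to 3383 and 3333 CPM in SWT. TXNRD1, at a mean of 1431 CPM, and NQO1, at 833 CPM, were the largest parts of that sum. It therefore says little about the genes of low CPM.

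**Figure D1:**
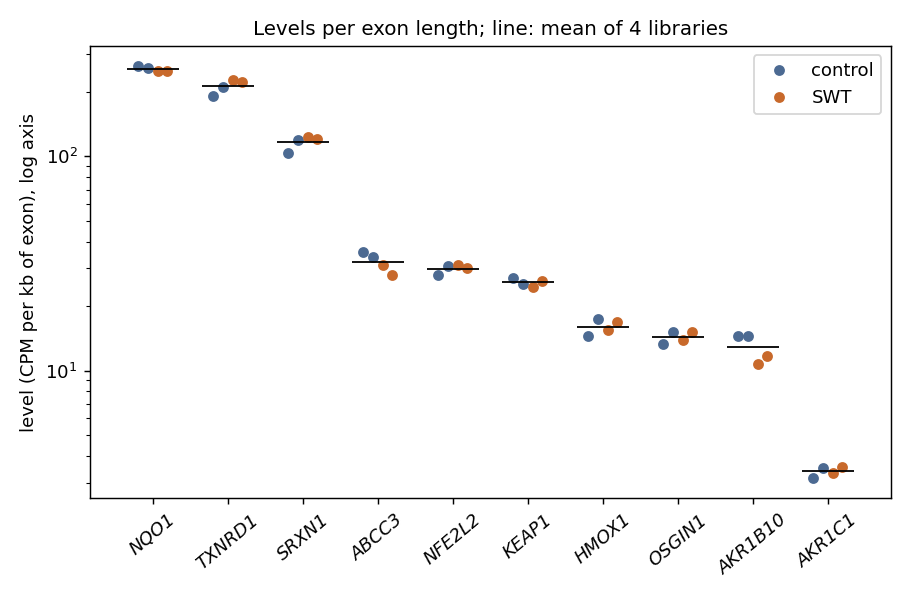
Level of each gene per kb of exon (CPM per kb, log axis) in the 4 libraries, control in blue and SWT in orange, with a line at the mean of all 4. NQO1, TXNRD1 and SRXN1 lie above 100 CPM per kb in every library. AKR1C1, divided by 8765 bases of joined exons, lies lowest, at 3.17 to 3.57.

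The comparison of SWT with control asks which of these transcripts differed 6 h after treatment. None of the 10 passed the test over all genes (edgeR's quasi-likelihood test, Benjamini-Hochberg adjusted p from 0.769 to 0.987), where 0.00% of the 12399 genes tested passed. At an unadjusted p under 0.05 (edgeR) there were 3 of 10, TXNRD1 higher and AKR1B10 and ABCC3 lower in SWT by value. The share of all genes tested was 5.77%, 2.81% higher and 2.96% lower. Because the 10 genes were chosen with earlier results of these data known, 3 of 10 beside that share is no test of the group. In 2 of the 10 genes, TXNRD1 and SRXN1, both SWT libraries lay above both controls, and in 3, NQO1, AKR1B10 and ABCC3, below them. Over all genes tested, 17.3% lay above in this way and 18.0% below, 35.3% in all. By value 6 of the 10 genes were above 0, where 49.7% of all genes tested were. Their median log2 fold change was 0.033, against -0.001 over all genes tested, and the median absolute log2 fold change was 0.059 against 0.074. With 2 samples per group an exact permutation test of a single gene cannot reach 0.05. In bulk RNA, fewer cells of a type and less RNA per cell cannot be told apart.

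**Figure D2:**
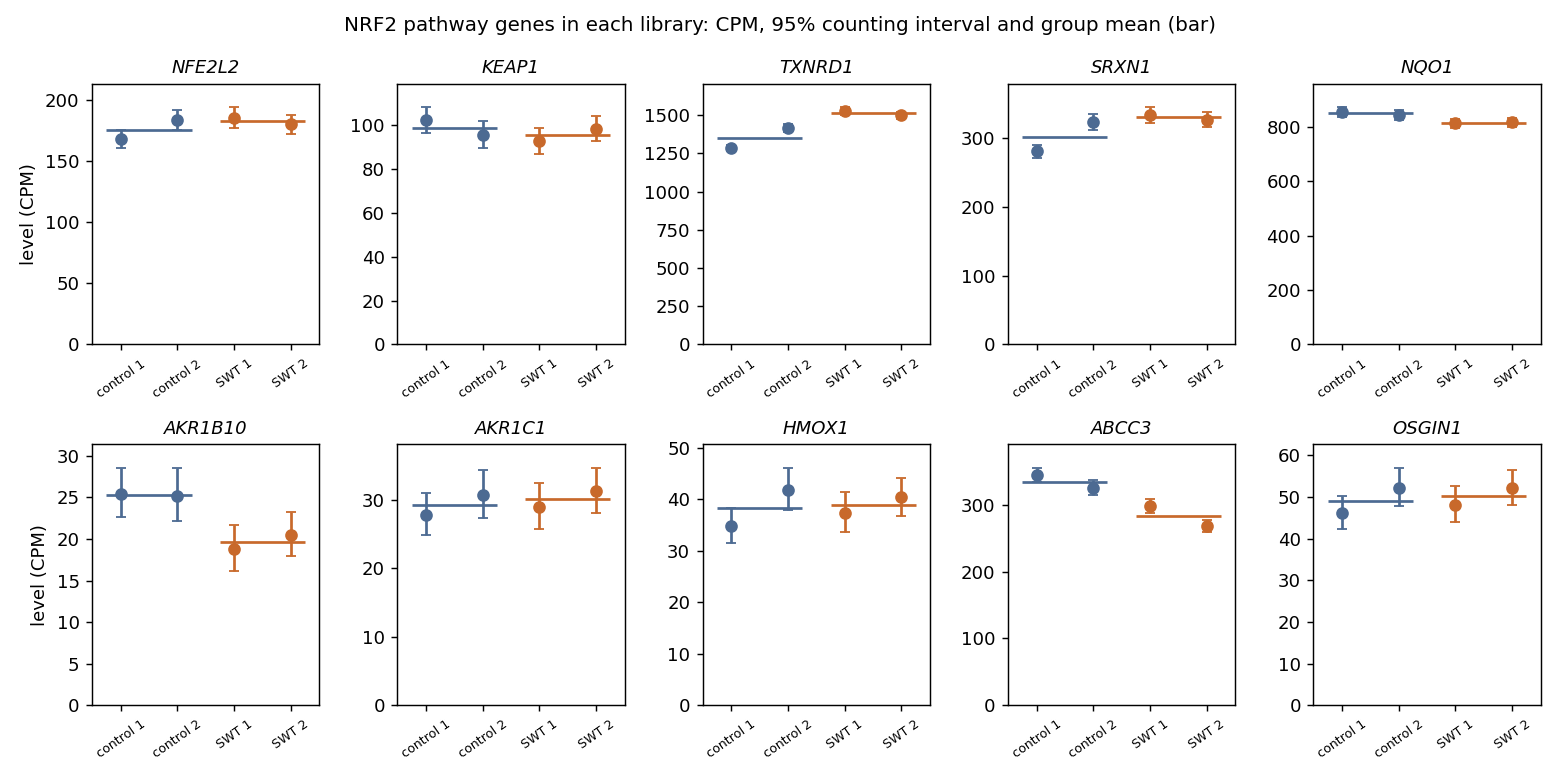
CPM of each gene in the 4 libraries (points, from 0), with exact Poisson 95% intervals for counting error and a bar at each group mean. SWT points lie above both controls for TXNRD1 and SRXN1, and below both for NQO1, AKR1B10 and ABCC3. For the other 5 genes the groups overlap.

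The groups overlapped for the transcripts of both regulators. NFE2L2 (chr2:177227595-177392697, minus strand) had 168 and 183 CPM in control replicates 1 and 2, and 185 and 180.0 CPM in SWT replicates 1 and 2. Control replicate 1 was the low library, and the other control lay between the SWT libraries. The log2 fold change of NFE2L2 was 0.06 (SE 0.061, 95% interval -0.07 to 0.19, edgeR adjusted p = 0.931), with -0.0055 when control replicate 1 was left out and 0.12 when control replicate 2 was. KEAP1 (chr19:10486120-10503741, minus strand) had 102 and 95.5 CPM in control and 92.6 and 98.2 CPM in SWT. The SWT libraries lay on both sides of control replicate 2. The log2 fold change of KEAP1 was -0.05 (SE 0.066, 95% interval -0.19 to 0.09, edgeR adjusted p = 0.941). KEAP1 reached 0.0017 without control replicate 1 and -0.095 without control replicate 2. Both intervals include 0.

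TXNRD1 (chr12:104215779-104350305, plus strand) encodes the cytosolic thioredoxin reductase, a selenoprotein that reduces thioredoxin with NADPH. Its level was 1283 and 1416 CPM in control and 1527 and 1498 CPM in SWT. Both SWT libraries were above both controls, but the controls were further apart from each other (0.14 on the log2 scale) than SWT replicate 2 was from control replicate 2 (0.08). The SWT mean was 12.1% above the control mean, with a log2 fold change of 0.16 (SE 0.05, 95% interval 0.06 to 0.27, edgeR adjusted p = 0.838). The size differed with the control left out: TXNRD1 stood at 0.096 without control replicate 1 (edgeR adjusted p = 0.586) and at 0.24 without control replicate 2 (edgeR adjusted p = 3.06e-05), the latter past the threshold. In those fits the lone control is assumed to vary like the SWT libraries. With each library's trend with GC content and length removed, TXNRD1 stood at 0.14 (edgeR adjusted p = 0.418), with 44.8% GC in its longest transcript.

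SRXN1 (chr20:646615-653370, minus strand) encodes sulfiredoxin, which repairs peroxiredoxins after overoxidation. Its level was 281 and 323 CPM in control and 333 and 327 CPM in SWT. The low library was control replicate 1, and the other three lay close together. SRXN1 had a log2 fold change of 0.13 (SE 0.063, 95% interval -0.0047 to 0.26, edgeR adjusted p = 0.843), of 0.032 without control replicate 1 and of 0.23 without control replicate 2 (edgeR adjusted p = 0.00361). Of the 50-base windows of the SRXN1 transcript, 84.7% are also in transcripts of AL121758.1. That gene is annotated on the same strand and shares 2292 exon bases with SRXN1. AL121758.1 is not among the counted symbols, and the annotation used in counting is not given. Whether shared reads were lost from the SRXN1 count is therefore not known. OSGIN1 shared 9.39% of its windows with a gene on the same strand, and NFE2L2 shared 5.06% with an antisense gene. A further gene on the same strand shares 1054 exon bases with NFE2L2. None of these overlapping genes is among the counted symbols. For TXNRD1, KEAP1 and ABCC3 0 windows were shared with another gene.

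NQO1 (chr16:69706996-69726951, minus strand) encodes the enzyme that reduces quinones by a pair of electrons, and is a common marker of NRF2 activity. Controls had 856 and 846 CPM of NQO1, and the SWT libraries had 814 and 818 CPM. The 4 libraries of NQO1 lay closer together than those of any other member, with a coefficient of variation of 2.49%. Both SWT libraries were below both controls, by a log2 fold change of -0.06 (SE 0.047, 95% interval -0.16 to 0.04, edgeR adjusted p = 0.91). NQO1 kept that sign with each library left out, from -0.068 (without control replicate 2) to -0.051. Of its 50-base windows 17.1% are also in AC092115.2, an antisense gene that is not among the counted symbols. The library kit keeps strand, per the labels, but the strand setting of the counting is not given in the sources used here. NQO1 and TXNRD1, the 2 most abundant of the target genes, lay by value on opposite sides of control in both SWT libraries. With all 4 libraries neither passed the test.

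AKR1B10 (chr7:134527592-134541408, plus strand) encodes an aldo-keto reductase of retinal and lipid aldehydes. It had 295 and 249 counts in control and 189 and 238 counts in SWT, or 25.4 and 25.2 CPM against 18.8 and 20.4 CPM. Both SWT libraries were below both controls, and with all 4 libraries on the log2 CPM scale this was the largest difference of the 10 genes by value. The SWT mean differed by -22.5% and the log2 fold change was -0.37 (SE 0.11, 95% interval -0.59 to -0.14, edgeR adjusted p = 0.838). Leaving out SWT replicate 2 gave -0.43, leaving out SWT replicate 1 gave -0.31, where ABCC3 was at -0.32, and leaving out control replicate 2 gave -0.37. AKR1B10 passed under none of the alternatives run. The exact Poisson interval of SWT replicate 2, 17.9 to 23.2 CPM, overlapped with that of control replicate 2, 22.2 to 28.5 CPM. Its close relative AKR1B15, which shares 11.6% of the 50-base windows of AKR1B10, had 12 and 8 counts in control and 14 and 8 in SWT, while AKR1B1, the aldose reductase, averaged 832 ± 23.0 CPM without and 756 ± 4.82 CPM with SWT (SD, n = 2 per group), for a log2 difference of -0.14 (edgeR adjusted p = 0.838).

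AKR1C1 (chr10:4963253-4983283, plus strand) encodes a hydroxysteroid dehydrogenase of the same superfamily. Its level was 27.7 and 30.8 CPM in control and 28.99 and 31.2 CPM in SWT. The groups overlapped, with a log2 fold change of 0.05 (SE 0.097, 95% interval -0.16 to 0.25, edgeR adjusted p = 0.972), and of 0.12 without control replicate 2. AKR1C2 shares 28.3% of the 50-base windows of the AKR1C1 transcript, so reads could be split between these genes or lost from both counts. Which of these occurred is not known. AKR1C2 held 20 and 19 counts in control and 19 and 18 in SWT. AKR1C3 averaged 45.3 ± 2.44 CPM without and 43.1 ± 4.49 CPM with SWT (SD, n = 2 per group), and AKR1C4 had 0 counts in all 4 libraries.

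HMOX1 (chr22:35380361-35394214, plus strand), which encodes the inducible heme oxygenase, stood at 34.7 and 41.8 CPM in the controls and at 37.3 and 40.3 CPM in the SWT libraries. Both SWT libraries lay between the controls, and the controls differed by 0.27 on the log2 scale, the widest gap within a group among the 10 genes. The log2 fold change of HMOX1 was 0.03 (SE 0.095, 95% interval -0.17 to 0.23, edgeR adjusted p = 0.987), from -0.1 without control replicate 1 to 0.17 without control replicate 2. OSGIN1 (chr16:83948282-83966332, plus strand), an oxidative stress response gene that restrains growth, had 46.0 and 52.2 CPM in the controls and 48.1 and 52.2 CPM in the SWT libraries, and these groups overlapped too. The log2 fold change of OSGIN1 was 0.04 (SE 0.082, 95% interval -0.14 to 0.21, edgeR adjusted p = 0.976), and 0.13 without control replicate 2.

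ABCC3 (chr17:50634777-50692252, plus strand) encodes the multidrug resistance protein MRP3, an exporter of glucuronide and glutathione conjugates. Its level was 344 and 326 CPM in control and 299 and 268 CPM in SWT. The groups did not overlap. The SWT libraries also differed from each other beyond counting error, with exact Poisson intervals of 288 to 309 CPM and 259 to 278 CPM. The SWT mean differed by -15.4%, with a log2 fold change of -0.24 (SE 0.061, 95% interval -0.37 to -0.11, edgeR adjusted p = 0.769), which ranked 15 by p-value among all genes tested. ABCC3 passed under some alternatives: without a filter on low counts it was -0.24 (edgeR adjusted p = 0.0112), without control replicate 1 it was -0.2 (0.0265) and without control replicate 2 it was -0.28 (7.59e-05). It did not pass without SWT replicate 1 (-0.32, edgeR adjusted p = 0.147) or without SWT replicate 2 (-0.17, edgeR adjusted p = 1), nor with the GC content and length trend removed (-0.22, edgeR adjusted p = 0.334).

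**Figure D3:**
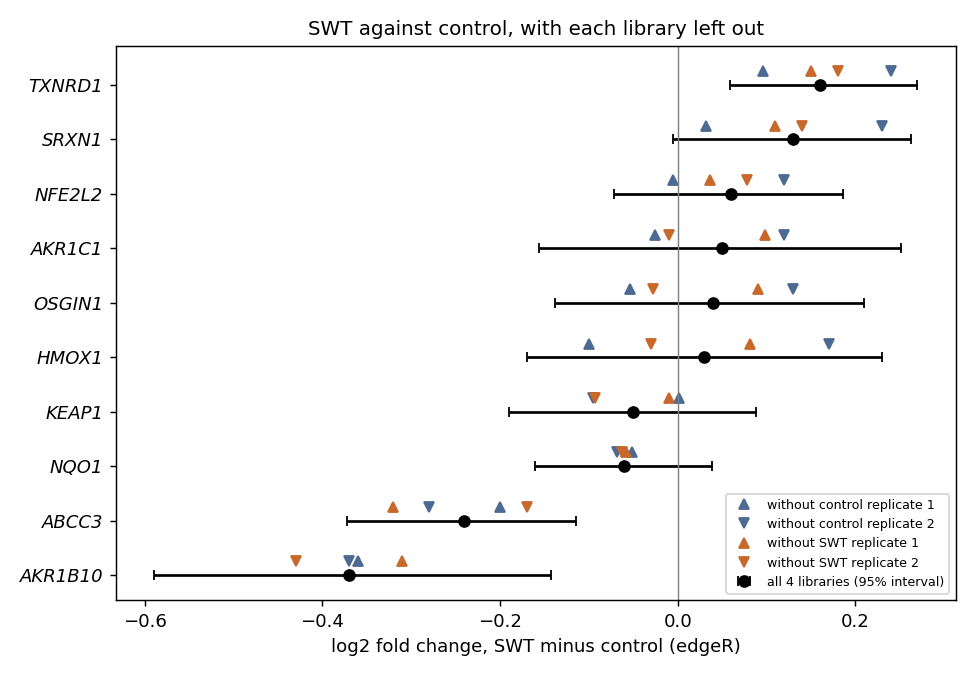
Log2 fold change of SWT minus control for each gene with all 4 libraries (black, 95% interval from the edgeR fit) and with 1 library left out (triangles). The triangles for TXNRD1, SRXN1, AKR1B10, ABCC3 and NQO1 stay on 1 side of 0, whereas NFE2L2, KEAP1, AKR1C1, OSGIN1 and HMOX1 cross it.

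The 2 controls differed from each other in all 6 genes that stood above 0. In NFE2L2, TXNRD1, SRXN1, HMOX1, AKR1C1 and OSGIN1, control replicate 2 was 0.13 to 0.27 above control replicate 1 on the log2 scale. In TXNRD1 that gap, 0.14, was smaller than the log2 fold change of 0.16, and in the other 5 genes it was larger than the fold change. Without control replicate 2, 6 genes were above 0 and TXNRD1, SRXN1 and ABCC3 passed. Without control replicate 1, 3 genes were above 0 and ABCC3 alone passed. The part of the heart transcripts and of the GC difference between the controls in this was not tested.

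Other genes of the pathway were read from lists of regulators and enzymes. Of 13 partners and turnover proteins of NRF2, 12 were tested and 0 passed, 6 above and 6 below 0, and the median log2 fold change was 0.022. The ligase scaffold CUL3 averaged 178 ± 8.67 CPM without and 189 ± 1.76 CPM with SWT, and its partner RBX1 27.3 ± 1.45 and 25.5 ± 3.14 CPM (SD, n = 2 per group). SQSTM1, the autophagy adaptor p62 that takes KEAP1 away from NRF2, averaged 994 ± 1.41 CPM without and 979 ± 21.4 CPM with SWT (SD, n = 2 per group). BACH1, the repressor at antioxidant response elements, differed by 0.11 on the log2 scale (SE 0.08, edgeR adjusted p = 0.902), while the repressor BACH2 had 0 counts in both controls and 1 and 5 counts in SWT. Of the small MAF partners, MAFG was the most abundant by CPM at 102 ± 1.12 without and 108 ± 6.69 with SWT, MAFK stood at 33.5 ± 0.504 and 32.4 ± 1.10 CPM, and MAFF at 5.17 ± 2.56 and 6.09 ± 1.21 CPM (SD, n = 2 per group). The related factors NFE2L1 and NFE2L3 stood at -0.02 and 0.08 on the log2 scale of the difference, NFE2 at -0.37 from 10 to 26 counts per library, the ligase subunit BTRC at -0.04 and the kinase GSK3B at 0.06.

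Among 12 genes of glutathione synthesis and NADPH supply, 11 were tested and 0 passed, 5 above and 6 below 0, with a median of -0.014. The smallest p-value was that of SLC7A11, the cystine transporter, at 165 and 199 CPM in the controls and 229 and 230.0 CPM in SWT (log2 fold change 0.34, SE 0.072, edgeR adjusted p = 0.759). The thioredoxin and peroxiredoxin list had 3 genes, all tested, and 0 passed. PRDX6 stood at -0.03 and PRDX1 at -0.01, and the thioredoxin gene TXN, the substrate of TXNRD1, averaged 282 ± 28.3 CPM without and 282 ± 27.9 CPM with SWT (SD, n = 2 per group).

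Of 24 other detoxification enzymes 18 were tested and 0 passed, 7 above and 11 below 0, with a median of -0.057. AKR1B1 and the epoxide hydrolase gene EPHX1 had the smallest p-values, at -0.14 and -0.16 (edgeR adjusted p = 0.838 for both). Of 5 other exporters of the ABC family 0 passed, 3 above and 2 below 0, and the 2 of smallest p-value were ABCC5 at -0.16 (SE 0.085) and ABCC2 at 0.32 (SE 0.2), the latter from 42 to 74 counts per library. Heme and iron genes had 5 of 6 tested members below 0, a median of -0.092 and 0 passing. FTL, ferritin light chain, averaged 4774 ± 149 CPM without and 4290.1 ± 58.7 CPM with SWT (SD, n = 2 per group), for a log2 difference of -0.15 (SE 0.038, edgeR adjusted p = 0.759), and has processed pseudogenes that can share its reads. BLVRB, a biliverdin reductase, stood at 48.2 and 45.6 CPM in the controls and at 39.1 and 38.6 CPM in SWT, for a log2 difference of -0.27 (SE 0.078, edgeR adjusted p = 0.838). The heme oxygenase gene HMOX2, expressed in most tissues, is listed at 0 in all 4 libraries, so no ratio of HMOX1 to it was formed.

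**Figure D4:**
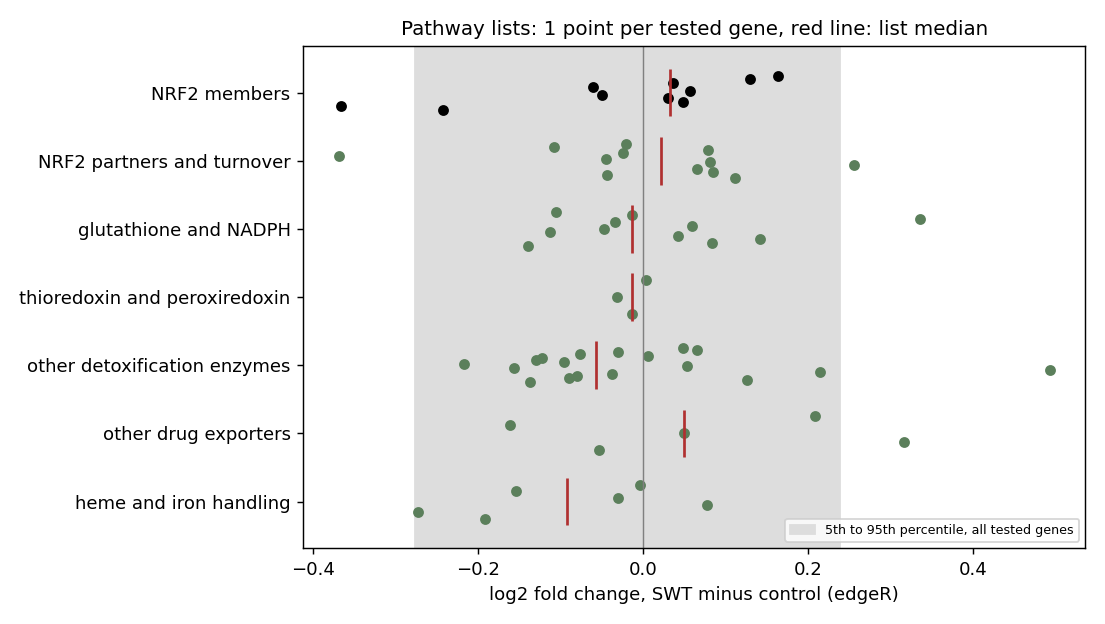
Log2 fold change of SWT minus control for every tested gene of 7 lists (1 point per gene, the 10 genes described here in black), with the list median as a red line and the range from the 5th to the 95th percentile of all tested genes in grey, -0.277 to 0.239. List medians lie between -0.092 and 0.049.

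Genes of like pattern were sought among 9688 genes by the root mean square difference of centred log2 CPM over the 4 libraries. Nearest to NFE2L2 were ARHGAP12 (0.004), CDR2 (0.0042) and YWHAQ (0.0046), and 187 genes lay within 0.02. Nearest to TXNRD1 were CRLF3 (0.0066), FNDC3A (0.0068) and STAMBPL1 (0.0094), with 25 genes within 0.02. None of the other 9 genes described here was among the 3 nearest of either.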

How the data were processed

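The authors deposited raw counts by gene symbol for each sample and, in a second table, log2 normalized values of 17151 genes. Differences in that second table were shrunken, to 0.377 of those in log2 CPM. The submitters' processing notes name Trimmomatic 0.36, FastQC 0.11.5, STAR 2.5.3a, HTSeq, DESeq2 and hg38 with no role for each. Annotation and strand setting: not given in the sources used here. A strand-keeping kit was used, per the labels' protocols.

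The tests used edgeR 4.0.16 (R 4.3.3) with TMM factors, filterByExpr and the quasi-likelihood F-test, adjusted by Benjamini-Hochberg over 12399 genes at a threshold of 0.05. A standard error is the size of the log2 fold change divided by the root of F, and intervals at 95% add a t quantile, so both are approximate. Poisson intervals and zero-count limits (set at 3 counts) reflect counting error alone. GENCODE release 29 (GRCh38, which is the assembly hg38) gave coordinates, exon lengths, GC content for 97.4% of tested genes and the 50-base windows, with all 10 genes matched by symbol. Alternatives were DESeq2 1.42.0, limma 3.58.1, other scalings and filters, a replicate block, each library left out and removal of GC and length trends. The fit was tested on simulated data. Plots: Python 3.11.15, matplotlib 3.10.9.

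The 10 genes and the gene lists were chosen with earlier results of these data known. The text names all 10 genes, their close sequence relatives, the partners of NRF2 and the 2 genes of smallest p-value in each other list, plus the 3 genes most like NFE2L2 and TXNRD1 in pattern. AL121758.1, AC092115.2, TXN, HMOX2, HAND2 and the named marker genes at 0 counts were named after their values were seen. Some genes that this rule covers are not reported here.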

Additional observations from a re-analysis of the deposited data

How the results depend on the processing

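With all 4 libraries, 0 genes passed as higher and 0 as lower in edgeR, in DESeq2 and in limma-voom. At an unadjusted p under 0.05 there were 715 of 12399 genes in edgeR and 721 of 12399 in limma-voom. In DESeq2, run over a larger set, there were 116 of 17737. Without a filter on low counts 20 passed as higher and 43 as lower, 1 of them among the 10 genes (ABCC3). With each library's trend with GC content and length removed 1 passed as higher. Leaving out 1 library gave 2 to 106 genes higher, 15 to 97 lower and 0 to 3 of the 10 genes. The cause was not tested. A group left with 1 library is assumed there to vary like the other. Leave-one-out values ranged from -0.0055 to 0.12 for NFE2L2, from -0.095 to 0.0017 for KEAP1, from -0.1 to 0.17 for HMOX1, from -0.026 to 0.12 for AKR1C1 and from -0.054 to 0.13 for OSGIN1, each on both sides of 0. HMOX1 stood at -0.03, AKR1C1 at -0.0098 and OSGIN1 at -0.028 without SWT replicate 2. The other 5 genes kept their direction under all alternatives run. In the authors' log2 table ABCC3 (-0.14), TXNRD1 (0.11) and SRXN1 (0.077) differed by more than AKR1B10 (-0.065). Differences there are shrunken unevenly, from -0.37 in edgeR for AKR1B10 and from -0.24 for ABCC3. The order of genes with unlike counts can therefore not be compared with that in edgeR. Same-numbered libraries deviated with a correlation of -0.283 across 6324 genes, which gave no sign that replicate numbers pair the samples. With the replicate number as a block 0 genes passed as higher, 1 as lower and 0 of the 10. A crossed pairing, added after the data were seen, gave 55 genes higher, 42 lower and 2 of the 10 (TXNRD1 and ABCC3). The summed level of the 10 genes moved by less than the spread between libraries with DESeq2 size factors.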
